A study of Mus musculus with 16 samples.

Results

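Cilp and Cilp2 encode the cartilage intermediate layer proteins, a pair of related proteins of the extracellular matrix. The 2 genes were found by their Ensembl identifiers, ENSMUSG00000042254 and ENSMUSG00000044006, among 47729 genes in the read-count table of mouse Achilles tendon and 29629 genes in the table of unique molecular identifier (UMI) counts of single cultured cells, and both were in both tables. The pair was chosen by its values in these same data, because the genes moved in opposite directions in tendon, so their own levels and changes are given as a description with no test.

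Achilles tendons came from mice aged 14 days, 2 wild-type animals (Scx-Wt) and 2 littermates homozygous for a knockout of Scx in the germ line (Scx-homoKO). Scx is a basic helix-loop-helix transcription factor of tendon and ligament cells. The cultured cells derived from induced pluripotent stem cells carrying ScxGFP, a GFP reporter transgene for Scx. All of them were first led to mesoderm with CHIR, an inhibitor of GSK3, and cyclopamine, an inhibitor of hedgehog signalling, in medium with serum, insulin, transferrin and selenite, and were collected without further treatment (T0) or after 3, 6 or 9 days with recombinant human TGF-β2 (T3, T6 and T9). Each time point holds 3 plates of 384 wells, sorted for single live nucleated cells with no gate on GFP. There was no untreated culture at T3, T6 or T9, so the time in culture and TGF-β2 cannot be told apart, and nothing states that the plates of 1 time point were separate cultures.

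CILP is made mainly by chondrocytes of the middle layers of articular cartilage and is also found in tendon, meniscus and injured heart. It is secreted, is cut into an N-terminal and a C-terminal part, and is known to bind TGF-β and to dampen its signalling, while TGF-β raises its transcription. An action against IGF1 has also been described. CILP2 is less well known and is likewise a secreted matrix protein. For these reasons genes of the TGF-β pathway and of the IGF axis were followed beside both members, together with genes of tenocytes and of cartilage.

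In the GRCm38 mouse genome (GENCODE vM21), Cilp lies on chromosome 9 from 65265180 to 65280605 on the plus strand, and Cilp2 lies on chromosome 8 from 69880369 to 69887687 on the minus strand. The annotated transcript of Cilp has 10 exons and 4153 bases, of which 3750 are coding. That of Cilp2 has 8 exons and 4314 bases, of which 3486 are coding. The longest stretch that the transcripts share exactly is 14 bases, shorter than the insert reads of 36 bases of the cultured cells, so an exact read of that length can be placed in only 1 of them.

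Scx and other basic helix-loop-helix factors bind E-boxes, which have the sequence CANNTG. That motif reads the same on both strands and was searched from 250 bases before to 50 bases after the start that RefSeq gives each gene (GRCm38.p6). It was present in 72.3% of 32851 mouse promoter windows, with a median of 1 per window, so finding it does not set a gene apart. The Cilp window, chr9:65264930-65265229, held 3 E-boxes, which begin 242, 97 and 39 bases before the start. The Cilp2 window, chr8:69887343-69887642, held 1 E-box, 156 bases before the RefSeq start. The start of Cilp2 in GENCODE lies 295 bases farther upstream, so by that annotation its window lies wholly within the first exon. These are shown because Scx is the factor removed from the tendons. Each is printed 5′ to 3′ on the gene's strand with the E-box in capitals.
Cilp, 242 bases before the start: ctgtggccCACTTGggtcatcactgc
Cilp, 97 bases before the start: gatctggtttcaCAGTTGctgctgctgctg
Cilp, 39 bases before the start: gggctgagccacCAGCTGtgctatataaga
Cilp2, 156 bases before the start: cagcacgggaccCAGTTGgagaaggagggg
CACTTG stood in 13.6%, CAGTTG in 13.7% and CAGCTG in 16.3% of all promoter windows. The matches describe the letters of the windows only, and no measure of binding was used.

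The tendon libraries held 11188270 to 12398560 counted reads. Scx itself, the targeted gene, was at 103 and 81.3 CPM (reads per 1000000 counted reads of the library) in the Scx-Wt samples and at 23.1 and 25.1 CPM in the Scx-homoKO samples. It was lower in both knockout samples and did not reach 0, with a log2 fold change of -1.88 (SE 0.17, edgeR quasi-likelihood test, adjusted p = 4.288e-04). The part of Scx that was removed is not given in the sources used here. Scx lies within Bop1 on the opposite strand, and whether the counting used strand is not given either. Bop1 was at 43.5 and 40.2 CPM in Scx-Wt and at 53.4 and 45.7 CPM in Scx-homoKO.

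Cilp was read 1842 and 2428 times in the Scx-Wt tendons and 22920 and 25581 times in the Scx-homoKO tendons. This is 165 and 198 CPM against 1849 and 2172 CPM, with means of 181 ± 23.7 and 2010 ± 228 (SD, n = 2 each). Both knockout samples lay far above both wild-type samples, and the groups did not overlap. The pair was chosen on these values, so the separation is a description and not a test. Over all genes tested in tendon, edgeR called 3.84%. The fitted log2 fold change was 3.51 (SE 0.24), an 11.4-fold higher level with a 95% interval of 8.19 to 15.9. The interval was taken from the SE under a normal distribution. It does not allow for the few samples or the choice of the pair, so it may be too narrow.

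Cilp2 went the other way by about as much. It was read 8309 and 8402 times in Scx-Wt and 767 and 618 times in Scx-homoKO, which is 743 and 686 CPM against 61.9 and 52.5 CPM. Every wild-type value lay above every knockout value, which is likewise a description only. The fitted log2 fold change was -3.60 (SE 0.19), a 12.1-fold lower level (95% interval 9.38 to 15.6, made in the same way and with the same limits).

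**Figure D1:**
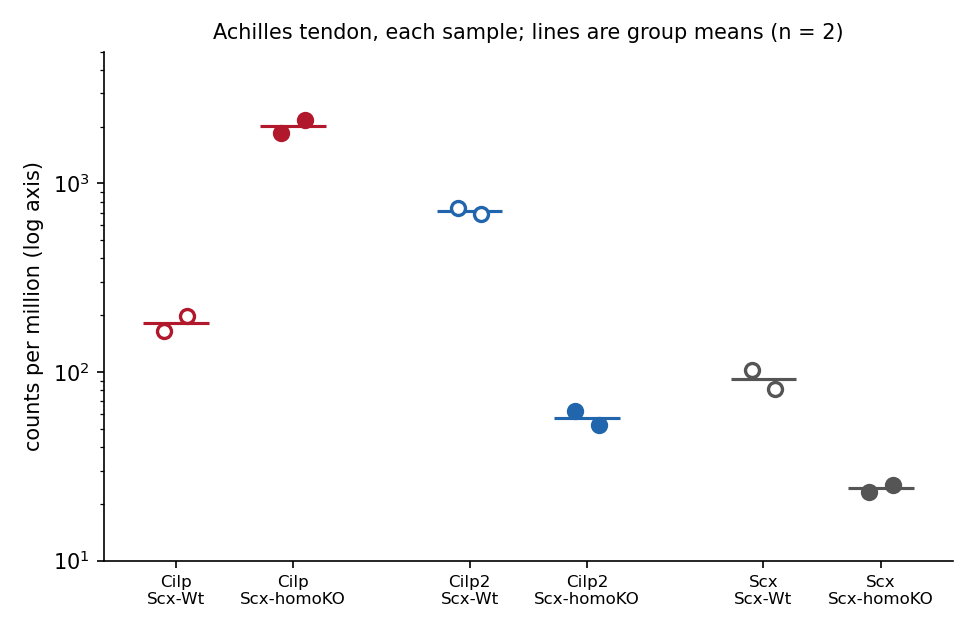
CPM of Cilp, Cilp2 and Scx in each Achilles tendon sample, on a log axis. Open points are Scx-Wt samples, filled points are Scx-homoKO samples and lines are means of 2 samples. Cilp lies at 165 and 198 in Scx-Wt and at 1849 and 2172 in Scx-homoKO, while Cilp2 lies at 743 and 686 in Scx-Wt and at 61.9 and 52.5 in Scx-homoKO.

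Per kilobase of exon, the more abundant gene of the pair was exchanged. In Scx-Wt, Cilp2 stood at 172 and 159 CPM per kb and Cilp at 38.7 and 46.6 CPM per kb, so that Cilp2 was 4.45-fold and 3.41-fold above Cilp in the 2 samples. In Scx-homoKO, Cilp stood at 435 and 511 CPM per kb and Cilp2 at 14.3 and 12.2 CPM per kb, so that Cilp was 30.3-fold and 42.0-fold above Cilp2. The sum of both genes was 211 and 206 CPM per kb in Scx-Wt and 449 and 523 CPM per kb in Scx-homoKO, so the sum did not stay level. By mean level per kb among 14571 genes, Cilp moved from place 885 to place 66 and Cilp2 from place 188 to place 2949. Among the 3985 genes with at least 50 CPM in a sample, only Dsp, which encodes desmoplakin, had a higher log2 fold change than Cilp (6.56), and Cilp2 was the 10th from the lowest.

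A whole tendon holds several cell types, and fewer cells of a type cannot be told apart from less RNA per cell. Sums of marker genes differed between the tendons beside the change of Cilp and Cilp2. The 10 tenocyte genes summed to 165700 and 152600 CPM in Scx-Wt and to 72480 and 83460 CPM in Scx-homoKO. Most of that sum came from Col1a1 and Col1a2 (84690 and 71260 CPM in Scx-Wt 1), neither of them called (edgeR adjusted p = 0.148 and 0.142). The 8 general fibroblast genes summed to 12940 and 8950 CPM against 20490 and 23280 CPM, mostly from Col3a1 (8532 CPM in Scx-Wt 1). Both sums thus mainly follow these collagen genes. The 8 skeletal muscle genes summed to 33810 and 56660 CPM against 69980 and 71540 CPM, the 5 endothelial genes to 587 and 613 CPM against 422 and 371 CPM, and the 5 adipocyte genes to 2437 and 1073 CPM against 668 and 344 CPM. Blood and immune genes summed to 239 to 427 CPM, and bone genes to 6.11 to 17.6 CPM with 1 of 6 at 0. Their part in the change of Cilp and Cilp2 was not tested. One library stood apart: the 5 Schwann cell genes summed to 6125 CPM in Scx-homoKO 1, 55.6 CPM in Scx-homoKO 2 and 707 and 692 CPM in Scx-Wt. Without Scx-homoKO 1, the log2 fold change was 3.65 for Cilp and -3.69 for Cilp2.

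Of the 14602 genes tested in tendon, 3.84% passed an adjusted p of 0.05 in the edgeR quasi-likelihood test, 258 higher and 302 lower in Scx-homoKO, and the listed genes are read against that share. Cartilage and fibrocartilage genes fell with Cilp2. Of 14 genes listed, 12 were tested, 8 fell and 0 rose, and the median log2 fold change of the 12 was -1.36, beside -0.0042 over all genes. Col2a1, the collagen of hyaline cartilage, fell by 5.09, Matn3 (matrilin 3) by 3.99, Chad (chondroadherin) by 3.81, Acan (aggrecan) fell by 2.95, and Hapln1, which links aggrecan to hyaluronan, fell by 2.45 on the log2 scale. Prg4 (lubricin) fell by 1.53, Col11a1 by 1.20 and Comp by 0.86 on that scale. Comp lost its call without either knockout sample (adjusted p = 0.0823 without Scx-homoKO 1 and 0.0653 without Scx-homoKO 2), and Hapln1 lost it without Scx-Wt 2 (adjusted p = 0.0918). Cilp, named for a layer of cartilage, moved against all 8.

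Tenocyte genes also fell. Of 10 tested, 5 fell and 0 rose, with a median log2 fold change of -1.16. Tnmd (tenomodulin, a membrane protein of mature tenocytes) fell by 2.30, Fmod (fibromodulin) by 1.89, Scx by 1.88, Mkx (Mohawk, a tendon transcription factor) fell by 1.70 and Kera (keratocan) by 1.37 on the log2 scale. Of the 8 general fibroblast genes, 3 rose with Cilp, namely Col3a1 by 1.41, Lum (lumican) by 1.22 and Dpt (dermatopontin) by 1.00. Col3a1 lost its call without either knockout sample (adjusted p = 0.0757 and 0.125), and Lum without Scx-homoKO 1 (adjusted p = 0.0536). Plin1 and Fabp4 of the adipocyte list and Kdr and Tek of the endothelial list fell as well. Plin1 and Fabp4 were not called by DESeq2 (adjusted p = 0.132 and 0.0845). Fabp4 lost its call without Scx-homoKO 2 as well (0.0746) and Plin1 without Scx-Wt 1 (0.0505). Kdr and Tek lost their calls without any 1 of the 4 samples (adjusted p from 0.0795 to 0.191). Of the skeletal muscle genes 0 of 8 were called by edgeR (3 at an unadjusted p of 0.05, 3 by DESeq2), and of the Schwann cell genes 0 of 5 (0 unadjusted, 0 by DESeq2). The 8 muscle genes do not stand for all muscle genes. Among genes with at least 50 CPM in a sample, the myosin genes Myh7 (-5.86), Myl2 (-5.60) and Myl3 (-5.25) had the lowest log2 fold changes. Their edgeR adjusted p values were 0.0027, 8.8e-04 and 7.6e-04. Ankrd1 (3.42) and Mss51 (3.23) were among the highest.

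**Figure D2:**
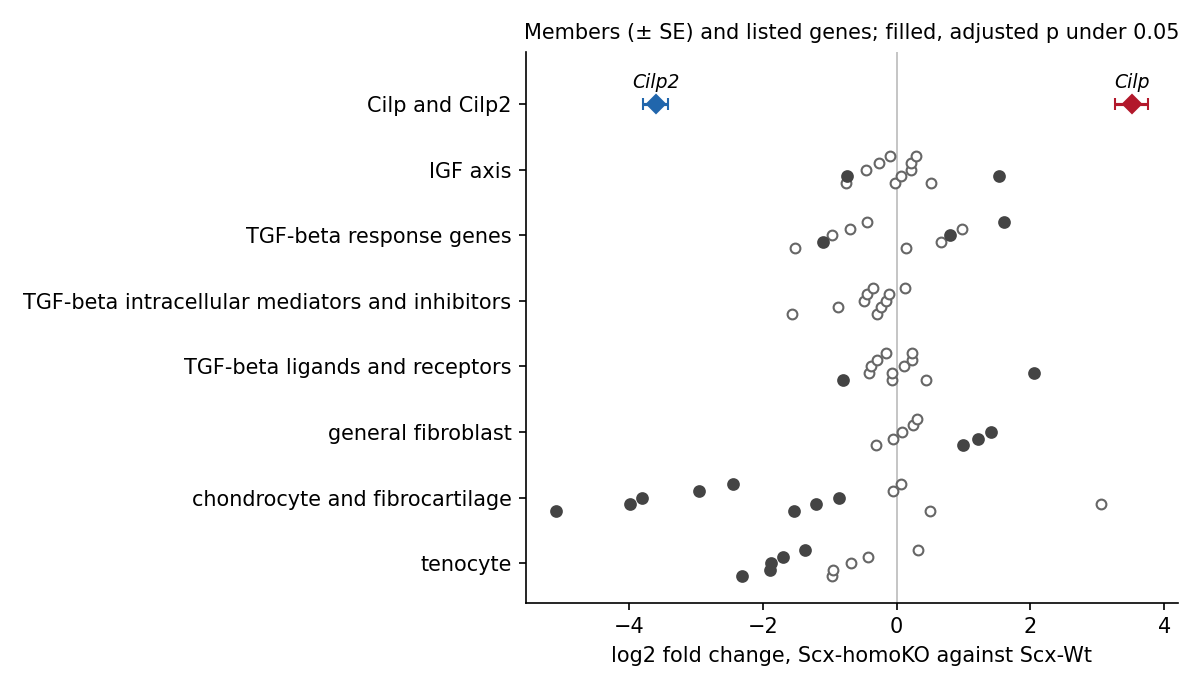
Log2 fold change between Scx-homoKO and Scx-Wt tendon for Cilp and Cilp2 (diamonds, bars are SE) and for the tested genes of 7 lists (circles, filled where the adjusted p is under 0.05). The members lie at 3.51 and -3.60, the filled points of the cartilage list all lie below 0, and most points of the TGF-β and IGF lists lie near 0 and are open.

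Genes of the TGF-β pathway, which CILP is known to dampen, moved in both directions or passed no test. The first list held 12 ligands, receptors and members of the latent TGF-β binding protein family. Of these, Ltbp2 (a member of that family found in elastic fibres) rose by 2.05 and Tgfbr3 (betaglycan, a co-receptor) fell by 0.80 on the log2 scale. Tgfbr3 lost its call without Scx-Wt 2 (adjusted p = 0.0604). Of 10 intracellular mediators and inhibitors, 0 were called by edgeR, 3 had an unadjusted p under 0.05 and 1 was called by DESeq2. Of 10 response genes, Postn (periostin) rose by 1.604, Pmepa1 (a feedback inhibitor) rose by 0.80 and Acta2 (smooth muscle actin) fell by 1.10. Pmepa1 lost its call without Scx-Wt 2 or Scx-homoKO 2 (adjusted p = 0.142 and 0.0667), and Acta2 without Scx-Wt 1 or Scx-homoKO 2 (adjusted p = 0.108 and 0.129). The median log2 fold change was -0.07 for the first list, -0.32 for the second and -0.15 for the third. Of 12 genes of the IGF axis, Igfbp2 rose by 1.53 and Igfbp3 fell by 0.73, both of them binding proteins that hold IGFs in the extracellular space, and the median was 0.03. Igfbp3 lost its call without either knockout sample (adjusted p = 0.125 and 0.0636).

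The nearest genes were described for the location of the pair, and those tested did not pass the test in tendon without a block. Clpx, a mitochondrial protease subunit 13654 bases downstream of Cilp, was at 83.1 and 75.6 CPM in Scx-Wt and at 54.6 and 51.9 CPM in Scx-homoKO (log2 fold change -0.53, SE 0.15, edgeR adjusted p = 0.0889, and 0.0473 with the replicate number as a block). Parp16, 25955 bases upstream of Cilp, had a log2 fold change of 0.08 (SE 0.26, adjusted p = 0.918), which is below 0 without Scx-Wt 2 (-0.07) or Scx-homoKO 2 (-0.04). Yjefn3 ends only 100 bases upstream of Cilp2 on the same strand and was at 12.9 and 14.9 CPM against 10.3 and 8.06 CPM (-0.56, SE 0.28, adjusted p = 0.348). Ndufa13, a subunit of complex I whose span lies within that of Yjefn3, had a log2 fold change of 0.17 (SE 0.18, adjusted p = 0.675). Lpar2, farther downstream of Cilp2, was at 1.29 to 2.29 CPM in all 4 samples. Pbx4, the nearest gene downstream of Cilp2, stood at or under 0.89 CPM in every tendon and was not tested, and the small genes Rnu5g and Gm16218 beside Cilp had 0 reads.

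In the cultured cells, 4594 of 4608 wells with at least 200 detected genes were used, and their UMIs were summed per plate. Cilp was nearly absent before TGF-β2 and had a higher mean level at each later time point. It had 2 UMIs among 12691879 at T0, 453 on T3 plates, 2587 on T6 plates and 3059 on T9 plates. Per plate, Cilp stood at 0.215, 0 and 0.269 CPM of UMIs at T0, where 3 counts in the group would be 0.236. It stood at 77.0, 57.8 and 51.6 CPM at T3 (62.1 ± 13.3, SD, n = 3), at 255, 167 and 253 CPM at T6 (225 ± 50.1) and at 242, 275 and 435 CPM at T9 (317 ± 103). The Cilp values of the T0, T3 and T6 plates did not overlap. Over all genes tested, edgeR called 33.2% from T0 to T3 and 4.24% from T3 to T6. The Cilp values of T6 and T9 did overlap in CPM. After TMM scaling, which sets plates level by the bulk of their genes, T6 stood at 203 to 234 and T9 at 328 to 416.

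Against T0 the ratio of summed CPM of Cilp was 383 at T3 and 1979 at T9, with exact 95% counting intervals of 105 to 3172 and 547 to 16350 that the 2 UMIs at T0 set. The fitted log2 fold change was 1.84 (SE 0.23) from T3 to T6 and 0.72 (SE 0.22) from T6 to T9. TMM scaling added 0.24 to the log2 fold changes of all genes from T6 to T9, 0.23 from T0 to T3 and 0.50 from T0 to T9, and 0.02 from T3 to T6 and 0.04 in tendon. By the mapping summary, the plates fall into those with fewer and those with more reads assigned to no gene. Among the plates with fewer such reads Cilp was at 51.6 and 77.0 CPM at T3, 167 CPM at T6 and 242 and 275 CPM at T9. Among those with more it was at 0 to 0.269 CPM on T0, 57.8 CPM on T3, 253 and 255 CPM on T6 and 435 CPM on T9. Within both kinds of plate Cilp was higher at each later time point. All T0 plates were of the second kind.

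Cilp2 stayed at a trace level in culture. It had 34 UMIs on T0 plates, 9 on T3 plates, 27 on T6 plates and 30 on T9 plates, over 1147 to 1151 cells per time point. Per plate it stood at 2.58, 4.40 and 0.807 CPM before TGF-β2, at 0.520, 1.11 and 1.74 CPM on T3, at 2.82, 1.27 and 2.85 CPM on T6 and at 1.63, 3.85 and 3.98 CPM on T9. Each time point overlapped every other. The fitted log2 fold changes were -0.92 (SE 0.71) from T0 to T3, 0.97 (SE 0.72) from T3 to T6, 0.66 (SE 0.62) from T6 to T9 and 0.71 (SE 0.61) from T0 to T9, none of them over 2 SE. By UMIs summed over plates, the ratio of Cilp2 from T0 to T3 was 0.448, with an exact 95% counting interval of 0.189 to 0.953 that lies below 1. This interval leaves out the spread between plates, and 8 of the 34 UMIs at T0 came from 1 cell of plate T0 2. The ratios were 2.00 (0.913 to 4.83) from T3 to T6, 1.27 (0.732 to 2.23) from T6 to T9 and 1.14 (0.675 to 1.92) from T0 to T9. A change of Cilp2 larger than the spread between plates was not detected. With SEs of 0.61 to 0.72, a small change could have been missed.

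**Figure D3:**
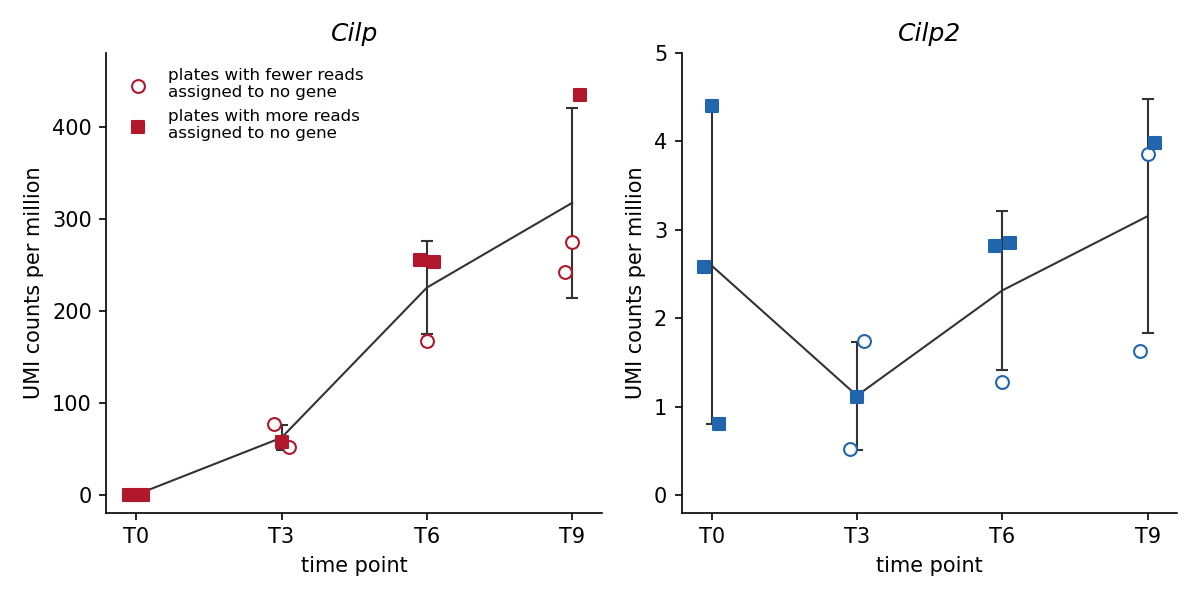
CPM of UMIs for Cilp (left) and Cilp2 (right) in each plate at T0, T3, T6 and T9, on linear axes of different range. Points are plates, open circles and filled squares mark plates with fewer and more reads assigned to no gene, and the line with bars is the mean ± SD of 3 plates. Cilp lies at or under 0.269 at T0 and between 242 and 435 at T9, while Cilp2 stays at or under 4.40 throughout.

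Scx had means of 9.51 CPM before TGF-β2 and of 734, 564 and 162 CPM after 3, 6 and 9 days (3 plates each), so the time point with the highest Scx level was T3 and the one with the highest Cilp level was T9. Over the 12 plates, the levels most like that of Cilp on the log2 scale among 13372 genes were those of Xbp1 (Pearson r = 0.9955), Esr1 (0.9949), Ier3 (0.9943), Rhoj (0.9940) and Bgn (0.9936). Xbp1 is a transcription factor of the unfolded protein response, Esr1 the oestrogen receptor α, and Bgn the matrix proteoglycan biglycan. The plates share time points and libraries, and such values mostly follow the step from T0 to the treated plates. In tendon these 5 genes had log2 fold changes from -0.39 to 0.45, with adjusted p from 0.263 to 0.755, while Cilp had 3.51. For Cilp2 the nearest were Lhpp (r = 0.892), Nme5 (0.881), Kcnab1 (0.871), Jph2 (0.871) and BC005624 (0.869), which rests on the few UMIs of Cilp2 given above.

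The share of cells with Cilp was higher at T3 and T6 than before, and alike at T6 and T9. At least 1 UMI of Cilp was found in 0.174% ± 0.151 of cells before TGF-β2 and in 16.9% ± 3.55, 49.3% ± 9.90 and 49.7% ± 5.82 after 3, 6 and 9 days (mean ± SD, n = 3 plates). With every cell thinned to 3000 UMIs, leaving out 293 of 4594 shallower cells, the shares were 0.0947%, 11.6% ± 1.99, 31.5% ± 7.23 and 35.3% ± 3.70. The thinned shares at T6 and T9 differed by less than the spread between plates. As a background, 11 of 38 pluripotent-like cells at T3 to T9, those with UMIs of at least 3 of 8 pluripotency genes, held a UMI of Cilp (28.9%), but at 15.3 CPM in all, beside 219 CPM in the other cells. Their median depth was 17606.5 UMIs, beside 7430 in the others, of which 38.7% held a Cilp UMI. The exact 95% interval of the background share was 15.4% to 45.9%. The share at T3 lay within it and is not read as expression by itself, while the CPM at T3 was above that of the pluripotent-like cells.

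Cells with many Cilp UMIs appeared late. The highest number in a cell was 1 before TGF-β2 and 14, 51 and 67 after 3, 6 and 9 days. Cells with 10 or more numbered 0, 2, 57 and 94 in that order, and held 39.97% of the Cilp UMIs of T6 and 52.1% of those of T9. These numbers were not thinned to a common depth, and cells were shallowest at T3. The median cell held 10175, 5703, 8794 and 7900 UMIs from T0 to T9. Cilp2 was found in 1.74% ± 0.840 of cells before TGF-β2 and in 0.521% ± 0.260, 1.83% ± 0.943 and 1.74% ± 0.550 after 3, 6 and 9 days, and in 0.460% to 0.638% of thinned cells at the 4 time points. At T0, 9 of 139 pluripotent-like cells held Cilp2 (6.47%, exact 95% interval 3.00 to 11.9, 8.17 CPM, median depth 16049 UMIs), beside 11 of 1008 other cells (1.09%, 0.546 to 1.94, 1.45 CPM, median depth 9694.5 UMIs). At T3 to T9, 2 of 38 pluripotent-like cells held it (5.26%, exact 95% interval 0.644 to 17.7). The shares of Cilp2 at each time point lay below those of the pluripotent-like cells and are not read as expression by themselves. The pluripotent-like cells were deeper and were not shown to lack Cilp2, so they cannot show whether its shares elsewhere are background. Intervals over cells cover counting error only. Both genes were found together in 0 of 20 cells with Cilp2 before TGF-β2 and in 2 of 6, 10 of 21 and 11 of 20 such cells after 3, 6 and 9 days, beside a Cilp UMI in 49.3% of all cells at T6 and 49.7% at T9.

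**Figure D4:**
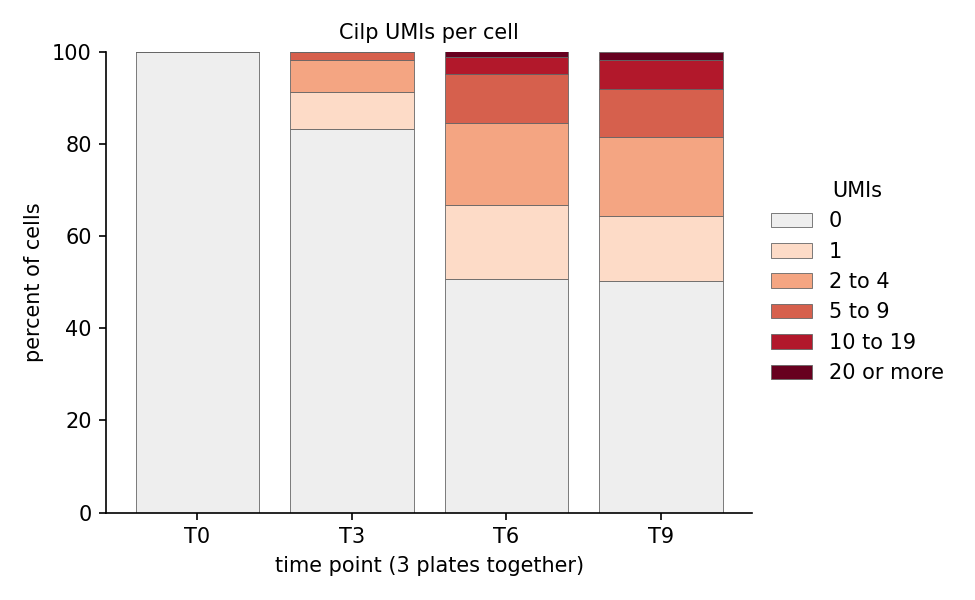
Percent of cells by their number of Cilp UMIs at each time point, 3 plates together. Colours run from 0 UMIs (grey) to 20 or more (darkest). Cells with 10 or more UMIs numbered 0, 2, 57 and 94 from T0 to T9, although the share with none was alike at T6 and T9. The cells were not thinned to a common depth.

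Between T0 and T9, 45.2% of the 13372 genes tested were called in the edgeR quasi-likelihood test, so a list gains little from its count alone. The p-values between time points measure only the spread between plates, which may be technical. Those between cells with and without Cilp, given below, were fitted with the plate as a block. They measure how the class difference varied from plate to plate, which may be technical too. Of 11 TGF-β ligands, receptors and latency proteins tested, 8 rose and Tgfbr1, the type I receptor, fell by 1.19 on the log2 scale. Tgfb3 rose by 3.76, Tgfbr2 (the type II receptor) by 3.96, Ltbp3 by 3.43 and Tgfbr3 by 2.94. Eng, also counted, lost its call without any 1 of 5 plates (T0 1, 2 or 3 or T9 1 or 2, adjusted p from 0.0541 to 0.0875). Of 10 intracellular mediators and inhibitors, Ski and Skil rose and Smad3 (-1.06), Smad4 and Smad6 (-1.34) fell. Ski lost its call without T0 1 or T9 3, Skil without any T0 plate or T9 3, and Smad4 without T0 2 or T9 1 (adjusted p from 0.0509 to 0.0739). Of 10 response genes 9 rose, Postn by 8.99, Ccn2 by 3.58 and Acta2 by 3.41 on the log2 scale. Of 12 genes of the IGF axis 8 rose, among them Igf1 by 2.38, Igfbp6 by 4.07 and Igfbp7 by 4.41, and 0 fell. The lists' medians were 2.33, -0.10, 3.37 and 1.68, beside -0.02 over all genes.

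The 10 tenocyte genes were all called higher from T0 to T3 (33.2% of all genes called) and from T0 to T9. From T3 to T6, when Cilp had a log2 fold change of 1.84, 6 of the 10 rose (4.24% of all genes called), among them Thbs4, Tnmd and Fmod. From T6 to T9 Scx fell and 0 rose (1.62% of all genes called). Thbs4 (thrombospondin 4) went from 0.220 CPM at T0 to 9.68, 71.8 and 117 CPM, and Tnmd from 0 to 8.61, 68.7 and 106 CPM (means of 3 plates). Of 6 cartilage genes tested between T0 and T9, Col11a1 (2.99), Prg4 (4.12) and Chad rose and Col2a1 (-4.07) and Hapln1 (-5.28) fell. Chad was at 0 at T0 and at 10.9 CPM at T9. Comp and Snorc were not in the UMI table, and Acan, Matn3 and 4 others were too low to test.

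Which genes differed between cells with and without Cilp does not follow from the choice of the pair and was therefore tested. Cells were thinned to 3000 UMIs, classed by at least 1 remaining UMI of Cilp, summed per plate and class, and compared with edgeR with the plate as a block. The classes with Cilp held 30, 45 and 46 cells in the plates of T3, 109, 91 and 139 at T6 and 129, 120 and 143 at T9. At T3 0.172% of 6994 genes were called (10 higher and 2 lower in cells with Cilp), at T6 0.561% of 7132 (24 higher, 16 lower) and at T9 0.683% of 6444 (30 higher, 14 lower). T6 and T9 shared 13 called genes, each with the same sign at both time points. DESeq2 with the same block called 2, 13 and 6 genes, and edgeR without the block called 0 at each time point, with 267, 139 and 108 genes at an unadjusted p of 0.05, so these calls depend on comparing classes within plates. Leaving out a plate left 1 to 9 calls at T3, 27 to 35 at T6 and 15 to 41 at T9. The counts fell by over 1.5 times without T3 2 or T3 3 (1 call each), T9 1 (17 calls) or T9 2 (15 calls). Cilp2 had too few cells for such a comparison.

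Tenocyte genes stood higher in cells with Cilp. Of the tenocyte genes tested, 3 of 7 were called higher at T3, 7 of 10 at T6 and 5 of 10 at T9, and 0 were called lower, while DESeq2 called 0, 3 and 1 of them. Genes of the general fibroblast list stood higher too. Of 4 tested, 1 was called higher at T3, 1 at T6 and 2 at T9, and 0 were called lower. They were Col3a1 each time and Dcn at T9, and DESeq2 called 0, 1 and 1. Thbs4 at T6 was at 168, 77.0 and 84.0 CPM in the cells with Cilp of the 3 plates and at 47.6, 39.9 and 19.7 CPM in the cells without. All 3 plates showed that direction (log2 difference 1.604, SE 0.24, adjusted p = 1.462e-05), and its call remained without any 1 plate. At T9 the Thbs4 difference was 0.91 (SE 0.19, adjusted p = 4.586e-04), with the call lost without T9 1 (0.94, adjusted p = 0.0621) or T9 2 (0.68, adjusted p = 0.175).

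Tnmd at T6 was at 184, 95.3 and 45.6 CPM in cells with Cilp and at 71.4, 55.2 and 12.1 CPM in cells without (1.23, SE 0.23, adjusted p = 9.442e-04). Every plate again went the same way, but the call was lost without T6 1 (1.12, adjusted p = 0.161). At T9 the difference of Tnmd was 0.90 (SE 0.19, adjusted p = 8.125e-04), and it lost its call without T9 1 (0.92, adjusted p = 0.146) or T9 2 (0.66, adjusted p = 0.382). With 5000 UMIs per cell the T9 differences were larger, 1.62 for Thbs4 and 1.57 for Tnmd. Col1a2, which encodes a chain of type I collagen, and Col3a1 were called higher at all 3 time points, by 0.48, 0.35 and 0.32 and by 0.40, 0.29 and 0.28. Tnc (tenascin C) was higher by 0.57 at T6 and 0.72 at T9, and Postn by 0.61 and 0.47.

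Scx itself was called at T3 and T6. At T3 it was at 1012, 1393 and 1037 CPM in cells with Cilp and at 720, 713 and 816 CPM in cells without, higher in each plate (0.63, SE 0.13, adjusted p = 0.00299). At T6 it was at 833, 594 and 634 CPM against 549, 581 and 373 CPM (0.46, SE 0.10, adjusted p = 0.00491). At T9 it was at 194, 86.2 and 208 CPM against 222, 128 and 133 CPM (0.01, SE 0.16, adjusted p = 0.998), and the plates did not go the same way. The Scx call at T3 was lost without T3 2 (0.42) or T3 3 (0.73), and that at T6 without T6 1 (0.40) or T6 3 (0.33). The difference between the T9 and T3 values was -0.59 (SE 0.20, adjusted p = 0.422 in a fit of the interaction that was chosen after seeing the data), so a change over time was not shown. Of 3 cartilage genes tested in each comparison at 3000 UMIs per cell, 0 were called by edgeR or DESeq2, with 1, 1 and 3 at an unadjusted p of 0.05. Among them Sox9, the transcription factor of chondrocytes, differed by 0.50 (SE 0.27) at T3, 0.04 (SE 0.16) at T6 and 0.56 (SE 0.21) at T9. At 5000 UMIs per cell the T9 difference of Sox9 was 0.76 and was called by edgeR (adjusted p = 0.0206).

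**Figure D5:**
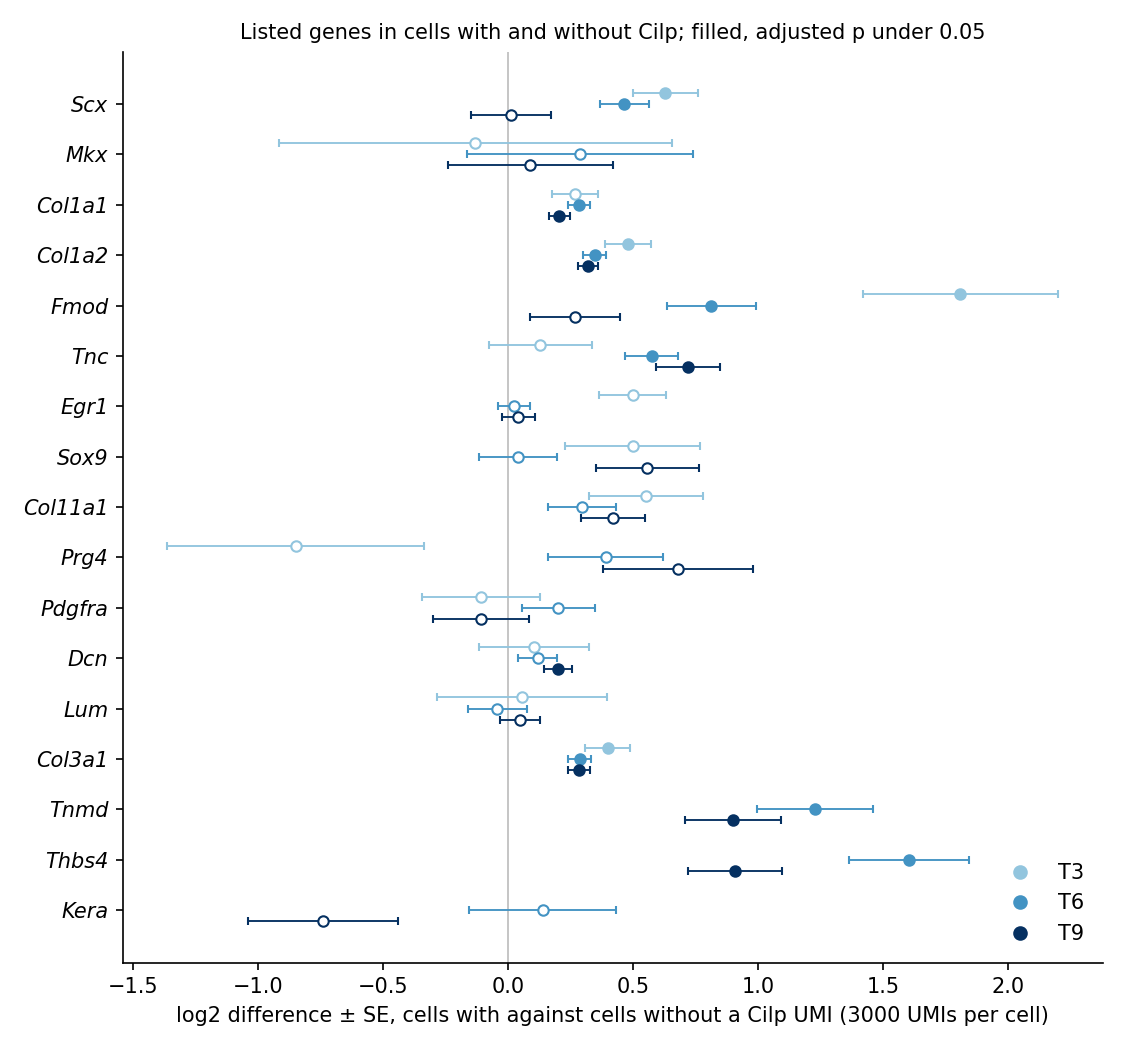
Log2 difference between cells with and without a Cilp UMI for the tested tenocyte, cartilage and general fibroblast genes at T3, T6 and T9, after thinning to 3000 UMIs per cell. Points are estimates from sums of 3 plates per class, bars are SE and filled points have an adjusted p under 0.05. Tnmd and Thbs4 lie at 1.23 and 1.604 at T6, Scx lies at 0.63, 0.46 and 0.01, and no point of Sox9 is filled at this depth.

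Other genes also differed between the classes, and some of them were called at more than 1 time point. At T3, Mgp (matrix Gla protein, an inhibitor of calcification) was at 2157, 1845 and 3277 CPM in cells with Cilp and at 1291, 1177 and 1228 CPM in cells without (0.97, SE 0.11, adjusted p = 3.164e-13). It was higher in all 3 plates, and the call was lost without T3 3 (0.67, adjusted p = 0.0722). Htra1, a secreted serine protease, was higher by 1.37 at T3 and lost its call without T3 2 (1.24, adjusted p = 0.884). The other genes with the largest calls at T3 were Ostn (2.12), Fmod (1.81) and Gja1 (0.81), which were higher, and Acta2 (-0.69) and Ptn (-0.55), which were lower. Those of Ostn, Fmod and Gja1 were lost without any 1 plate, that of Acta2 without T3 2 (-0.51) or T3 3 (-0.71), and that of Ptn without any 1 plate. At 5000 UMIs per cell, Ostn was at 1.34, Fmod at 1.71, Gja1 at 0.40, Acta2 at -0.52 and Ptn at -0.20, none of them called (edgeR adjusted p from 0.0841 to 0.910).

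At T6, Pde4b (1.65), Lgr5 (1.08) and Adh1 (0.98) were also higher in cells with Cilp. Cdkn2b (-1.48), Msmo1 (-1.41) and Aldh1a2, an enzyme of retinoic acid synthesis (-0.99), were lower. Each of these 6 calls was lost without at least 1 plate, and Pde4b was at 0.68 and not called at 5000 UMIs per cell (edgeR adjusted p = 0.638). Adh1 was also called higher at T9 (0.60, edgeR adjusted p = 0.0397). At T9, Igfbp7 was at 67.2, 108 and 103 CPM in cells with Cilp and at 39.3, 29.0 and 27.3 CPM in cells without (1.52, SE 0.25, adjusted p = 8.689e-07), and its call remained without any 1 plate. Fabp4 (1.66) and Magi1 (1.88) were higher, with both calls lost without T9 2 (1.38 and 1.58), as was Rbp4 (1.08), whose call was lost without T9 2 (0.76) or T9 3 (1.15) and at 5000 UMIs per cell (0.35, edgeR adjusted p = 0.823).

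Cells without Cilp at T9 had more Srgn, the core protein serglycin (126, 144 and 37.9 CPM against 23.3, 13.9 and 35.0 CPM in cells with Cilp, log2 difference -1.98, SE 0.27, adjusted p = 2.759e-10). Lama1, a laminin chain of basement membranes, was at 70.5, 79.0 and 74.2 CPM against 5.17, 13.9 and 35.0 CPM (-2.01, SE 0.31, adjusted p = 8.014e-08). Both were lower in cells with Cilp in all 3 plates, and both calls remained without any 1 plate of T9. At T6 the differences were -2.12 for Srgn and -1.46 for Lama1, and both calls were lost without T6 1 (-1.41 and -0.39). Actc1, a cardiac actin, was lower in cells with Cilp at T9 (-2.71, SE 0.37), with 0 UMIs in either class of plate T9 2. Tfpi (-1.63) and Otud4 (-1.81) were lower as well, both with the call lost without T9 1 (-1.04 and -1.80) or T9 2 (-1.68 and -1.58). The paper described a cell cluster marked by Srgn, Tfpi and basement membrane genes, which appeared endothelial to its authors. The part of such cells in these differences was not tested. At 5000 UMIs per cell Otud4 was at -0.77 and not called (edgeR adjusted p = 0.402), and Srgn at T9 was at -1.30 and still called.

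The size of these class differences was set side by side over time in the same fit of the interaction, chosen after seeing the data, in which 0.0236% of 8489 genes differed between T6 and T3, 0.0942% between T9 and T3 and 0.0% between T9 and T6 (0 called by edgeR, 276 at an unadjusted p of 0.05, no other tool run). Most differences between cells with and without Cilp at single time points are therefore not shown to be particular to that time.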

How the data were processed

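The deposited bulk table held whole-number read counts per gene, which the authors made with HISAT2 2.0.4 on GRCm38 and featureCounts 1.5.0. For the plates (a modified CEL-Seq2), the authors mapped reads with HISAT2 2.2.1, assigned them with featureCounts and deposited UMI counts per gene and well made with UMI-tools 1.0.1. Neither table was normalized. Entries outside Ensembl (3, with 0.0642% of UMIs) were left out.

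Wells with fewer than 200 genes were removed, UMIs were summed per plate, and doublets were left to the sort, with no caller run. All plates share the same 384 barcodes by design. CPM used plain library totals. edgeR 4.0.16 (R 4.3.3) quasi-likelihood tests with TMM scaling and filterByExpr were fitted on all genes, over the 4 tendons or the 12 plates, with Benjamini-Hochberg adjustment and a threshold of 0.05. Cells with and without Cilp were compared with the plate as a block. DESeq2 1.42.0, no filter, other thinning and cell minimums, a replicate block and leaving out each library were alternatives.

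The members, the lists and the tests were chosen with earlier results of these data known. Genes named were the members, Scx, the genes of the lists, the 5 genes most like each member over the plates, the nearest 2 annotated genes on each side, and the 5 largest called differences in each direction between cells with and without Cilp. Col1a2, Col3a1, Tnc and Postn are list genes. Dsp, Myh7, Myl2, Myl3, Ankrd1 and Mss51 were named from the ends of the ranking of tendon genes with at least 50 CPM in a sample. The tendon groups held 2 animals each, so their p-values rest on few samples. On simulated counts with 200 genes changed 3-fold, 91.5% were recovered in tendon (14602 genes) and 95.5% between T9 and T0 (13372 genes). Between the Cilp classes 87.5% were recovered at T9 (6444 genes), and 28% for the difference of classes between T9 and T3 (8489 genes). The simulation gave all genes the same preset spread, not fitted to these data, and no plate effects. These shares therefore do not give the power of the tests on the real counts. Locations came from GENCODE vM21 and promoter sequences from RefSeq (GRCm38.p6). A gene of the TGF-β response list is counted but not reported by itself here.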

Additional observations from a re-analysis of the deposited data

Results flagged for a closer look

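In the fit of the interaction chosen after seeing the data, the gap between cells with and without Cilp differed between time points for 4 of the genes named above. The gap of Mgp fell by 0.76 on the log2 scale from T3 to T6 (SE 0.11) and fell by 0.77 from T3 to T9 (SE 0.11), and its value at T3 lost the call without T3 3. The gap of Fmod fell by 1.499 from T3 to T9 (SE 0.35, edgeR adjusted p = 0.0463). The gap of Ptn rose by 0.66 from T3 to T6 (SE 0.14, edgeR adjusted p = 0.0257). The gap of Magi1 rose by 3.25 from T3 to T9 (SE 0.72, edgeR adjusted p = 0.0251).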

How the results depend on the processing

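Cilp kept its direction in tendon under every alternative run, from 3.34 to 3.71 on the log2 scale with 1 sample left out, and Cilp2 from -3.69 to -3.51. With Cilp in culture, leaving out 1 plate gave 1.65 to 2.13 from T3 to T6 and 0.64 to 0.79 from T6 to T9, and log2 ratios to T0 of 7.98 to 9.08 at T3 and 10.3 to 11.5 at T9. For Cilp2 it gave -1.45 to -0.30 from T0 to T3, 0.75 to 1.496 from T3 to T6, 0.40 to 0.92 from T6 to T9 and 0.32 to 1.33 from T0 to T9. Where 1 sample of a group was left, it was assumed to vary like the other groups.

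The 560 genes called in tendon became 1415 with no filter and 380 to 666 with 1 sample left out. From T3 to T6, 567 calls became 899 by DESeq2, 1010 with no filter, 1483 with the plate split in the fit and 291 to 890 with 1 plate left out (303 without T3 1, 326 without T3 3, 291 without T6 1, 890 without T6 2, 300 without T6 3). From T6 to T9, 217 calls became 568 by DESeq2, 684 with no filter, 813 with the split and 35 to 852 with 1 plate left out (126 without T0 2, 124 without T0 3, 134 without T3 3, 48 without T6 1, 675 without T6 2, 44 without T6 3, 35 without T9 1, 71 without T9 2, 852 without T9 3). The ranges were 3001 to 5084 from T0 to T3 and 4774 to 6684 from T0 to T9. The cause of these shifts was not tested.

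Between cells with and without Cilp, the 12 calls at T3 became 2 by DESeq2, 7 with no filter and 0 with no block. The 40 at T6 became 71 at 5000 UMIs per cell, 13 by DESeq2 and 0 with no block, and the 44 at T9 became 67, 6 and 0. Of 33 class differences of named genes computed at 5000 UMIs per cell, 8 lost their call, 1 (Sox9 at T9) gained one and 0 turned, while Actc1 gave no value there. With 1 plate left out there were 1 to 9, 27 to 35 and 15 to 41. Of the list genes in tendon, edgeR called 3 TGF-β response genes and DESeq2 6, and for tenocyte genes 5 and 8.

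With at least 2 UMIs, Cilp was in 0% of cells before TGF-β2 and in 8.86%, 33.3% and 35.7% after 3, 6 and 9 days, and thinned in 11.6%, 31.5% and 35.3% from T3 on. Cilp2 was in 0.523%, 0.261%, 0.523% and 0.610% with 2 UMIs and in 0.460%, 0.474% and 0.638% of thinned cells at T0, T6 and T9.

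The same-numbered libraries did not deviate together by the rule used (r = 0.0715 in tendon, -0.563 to 0.515 between plates), so they share only a number. With that replicate block, 1108 genes were called in tendon, 113 from T6 to T9, 404 from T3 to T6, 4005 from T0 to T3 and 5653 from T0 to T9, and the log2 fold changes in tendon were 3.52 for Cilp and -3.60 for Cilp2. Clpx in tendon passed the test with it (adjusted p = 0.0473).

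Signs turned for values near 0. Parp16 in tendon was at -0.0677 without Scx-Wt 2, at -0.0418 without Scx-homoKO 2 and at up to 0.241 without another sample, and Lpar2 at -0.0682 without Scx-Wt 1, -0.386 without Scx-homoKO 2 and up to 0.502. Between the Cilp classes, Sox9 at T6 was at -0.0160 with no filter, -0.0269 without T6 1, -0.0501 without T6 3 and 0.185 without T6 2. Scx at T9 was at -0.0132 by DESeq2, -0.00489 with no filter, -0.0389 with no block, -0.353 without T9 3 and 0.186 without T9 2.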
